A study of Caenorhabditis elegans with 2 samples.

Results

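The 5 genes snpc-1.3, snpc-4, prde-1, tofu-4 and tofu-5 of Caenorhabditis elegans act in the transcription of piRNA genes, and their surroundings were searched for binding sites of TRA-1. They are 5 of 19973 protein-coding genes on the nuclear chromosomes in the Ensembl annotation of WBcel235. The genes were named for their function, and they were chosen on values already known from these data: the peak signal, score, summit distance and binding-motif copies around them. Everything given here about them is therefore a description, and no test was made. TRA-1 binding was measured by chromatin immunoprecipitation and sequencing in whole L4 larvae of the strain DZ840, aged 48 h and synchronised by bleaching and starvation at the L1 stage. All animals carried tra-1 with a GFP and 3xFLAG tag, inserted by CRISPR at its own locus on chromosome III, and antibodies against GFP were used. There were 2 biological replicates of this 1 group, and no group of another genotype, stage or sex was compared. The labels do not record the sex of the animals, and germ line and somatic chromatin of whole larvae cannot be told apart.

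piRNAs, which in this species are known as 21U-RNAs, are small RNAs of the germ line that guide the Argonaute protein PRG-1 to foreign and unwanted transcripts. Most are made from very short genes that are transcribed one by one by RNA polymerase II. SNPC-4, a subunit of the small nuclear RNA activating complex (SNAPc), binds the promoters of these genes together with PRDE-1, TOFU-4 and TOFU-5. SNPC-1.3 is a paralog of another SNAPc subunit. It has been reported to be needed for the piRNAs made during sperm formation, and its gene has been reported to be repressed by TRA-1. TRA-1 itself, a GLI-type zinc-finger factor, stands at the end of the pathway that sets somatic sex, and it also acts on the choice between sperm and oocytes.

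Of the 5 genes, snpc-1.3 alone had a TRA-1 site in the main list of both replicates, directly upstream of its start. The site held 3 exact copies of TGGGTGGTC, the core of the motif that GLI-family factors bind. The gene lies on the minus strand at chrV:5437084-5439168, and the site covered chrV:5439094-5439397 (WBcel235). Of its 304 bases, 229 lay upstream of the gene start and 75 inside the gene, in the first exon. The summit at position 5439246 was 78 bp upstream of the start. The upstream bases chrV:5439169-5439348, which hold every copy of the core, are printed on the plus strand from RefSeq's WBcel235 sequence, with the core in capitals. The gene start follows to the left of the first base. The 3 copies are then shown with 10 bases to each side, so that their flanks can be compared.
snpc-1.3 upstream region: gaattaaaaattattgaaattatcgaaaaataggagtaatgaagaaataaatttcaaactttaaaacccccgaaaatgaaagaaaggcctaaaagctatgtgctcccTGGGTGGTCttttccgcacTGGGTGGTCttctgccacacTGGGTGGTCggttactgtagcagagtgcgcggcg
snpc-1.3 copy 1: atgtgctcccTGGGTGGTCttttccgcac
snpc-1.3 copy 2: ttttccgcacTGGGTGGTCttctgccaca
snpc-1.3 copy 3: tctgccacacTGGGTGGTCggttactgta

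The copies began at positions 5439276, 5439295 and 5439315, all on the plus strand. They lay 108, 127 and 147 bp upstream of the gene start, counted from the base of each copy nearest to it. The starts of neighbouring copies were 19 and 20 bp apart, and all 3 copies together spanned 48 bp. Their centres lay 34, 53 and 73 bp from the summit of both replicates, all on the side away from the gene. Only the first copy was wholly within 50 bp of that summit. Allowing 1 mismatch added no further copy within 500 bp of the summit. The sequences flanking the cores were less alike than the cores: copies 1 and 2 shared 5 of the 10 bases before the core, copies 1 and 3 shared 3, and copies 2 and 3 shared 7. The longer TRA-1 site known from other genes has TTTTC 4 bases before the core. None of the 3 copies had TTTTC at that place. It stood 5 bases before copy 2 and 25 bases before copy 3, and was not found within 30 bases before copy 1.

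**Figure D1:**
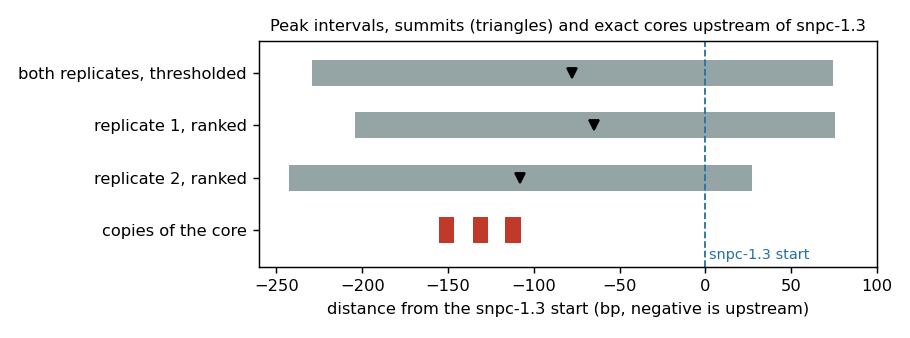
Peak intervals (grey bars), peak summits (triangles) and exact cores (red bars) against the distance from the snpc-1.3 start in bp. The pooled and both replicate peaks contain the 3 cores, and the replicate 2 summit lies at the core nearest to the gene, 108 bp upstream.

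The authors' signal for the snpc-1.3 site, a peak value whose formula is not given in the sources used here, was 111.6. This placed the site at rank 1194 of 2703 by signal, in the middle of the list. Its score was 1000, the highest that the lists give. A high score stands for a low irreproducible discovery rate (IDR), which measures how well peaks repeat between replicates. For this site the IDR was 0.000616. In the main list 1321 sites had an IDR of at most 0.001. The snpc-1.3 site was thus near the middle of the list by strength and among those 1321 by IDR.

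In the ranked lists made from each replicate alone, the peak at the site had a signal of 55.15 in replicate 1 and 56.67 in replicate 2. The ratio of the higher to the lower value was 1.03, against a median ratio of 1.27 over the 2664 main sites with a peak in both replicates, and 94% of those sites had a ratio at least as high. The deposited values therefore lay close together, but it is not known whether the signals of the 2 replicates share a scale. By rank within its own list, the peak stood at 4.25% from the top in replicate 1 and at 1.83% in replicate 2. The summit was 65 bp upstream of the gene start in replicate 1 and 108 bp upstream in replicate 2. These summits were 43 bp apart, against a median of 25 bp, and 34% of the main sites had summits at least as far apart. The replicate 2 summit was 4 bp from the centre of the first core, and the replicate 1 summit was 47 bp from it.

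The peak did not pass the authors' threshold in either replicate alone. Its score was 127 in replicate 1 and 736 in replicate 2, where the lowest score in a thresholded list was 830, an IDR of about 0.01. A list made from 1 replicate alone cannot measure how peaks repeat between the 2 replicates. These scores are therefore not the same measure as the score in the main list. Of the main sites, 936 (34.6%) were likewise in neither replicate's own thresholded list, and 954 (35.3%) were in both. Thus the call at snpc-1.3 rests on the lists that combine the replicates.

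**Figure D2:**
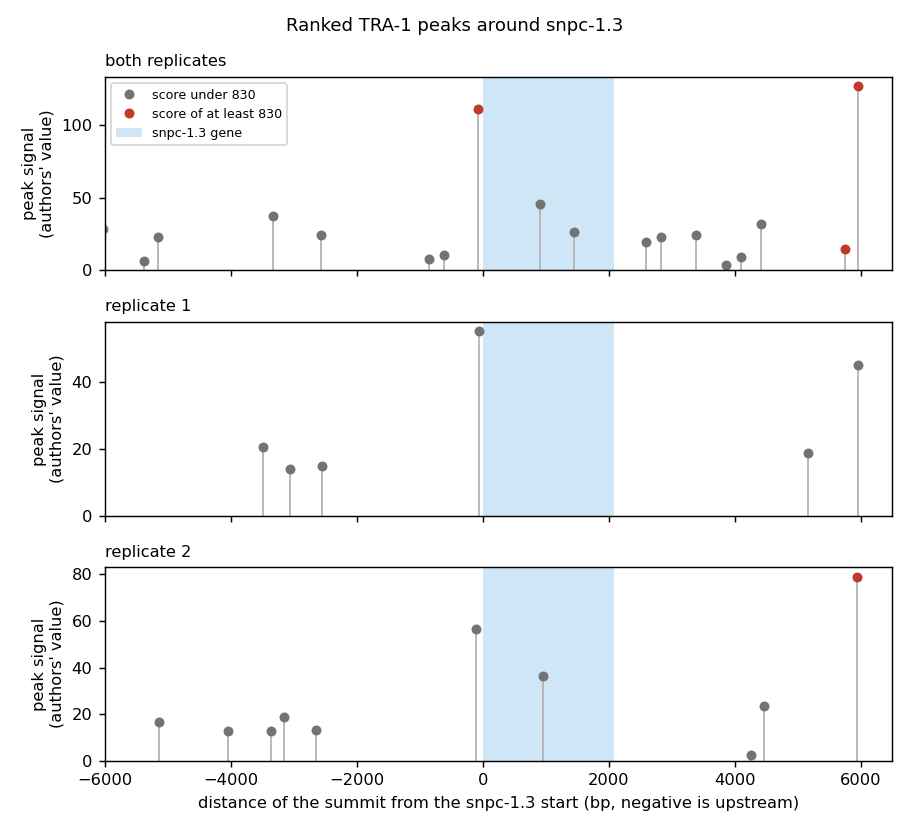
Signal of every ranked peak, each panel with its own signal axis, against the distance of its summit from the snpc-1.3 start in bp, for both replicates together and for each alone. Red points have a score of at least 830, and the shaded band is the gene. A peak stands just upstream of the start in all 3 panels, and passes the score in the panel of both replicates only.

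Few TRA-1 sites held an exact core at all. It occurred in 12 of 2703 main sites (0.444%), and snpc-1.3 was the 1 site with 3 copies. The only other site with more than 1 exact copy lay 477 bp upstream of fog-3, a gene needed for sperm fate, and held 2. A further fog-3 site, 20 bp upstream of the start, held 1. The strongest site of the list, upstream of the sperm fate gene fog-1, had 1 exact copy and a signal of 894.7. With 1 mismatch allowed, 124 sites (4.59%) held a copy, and snpc-1.3 and fog-1 were the 2 sites with 3. The site with the highest copy number of exact cores therefore had a signal far below that of fog-1.

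Signals of the replicates at these sites are set against snpc-1.3. At fog-1 the signal was 458.4 in replicate 1 and 425.2 in replicate 2. The stronger fog-3 site had 44.14 and 56.47, and the weaker one 55.42 and 48.65. The snpc-1.3 values of 55.15 and 56.67 lay within the range of the fog-3 sites or just above it, and both were below those of fog-1. Exact cores also occurred at the sites of hbl-1, which encodes a zinc-finger factor of developmental timing, and of sod-4, which encodes a superoxide dismutase. A further 2 sites with an exact core lay inside the genes T28B11.1 and F10A3.4, 14955 and 2528 bp past their starts. At tatn-1, at flh-2, at the site shared by sec-6, F09E5.11 and bmy-1, and at a site 2180 bp upstream of sup-26, outside its window, the core was 103 to 146 bp from the summit. All 12 sites ranked between 1 and 2343 by signal. Of these 12 sites, 4 were in both replicates' own thresholded lists, 5 were in 1 of them and 3, snpc-1.3 among them, were in neither.

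**Figure D3:**
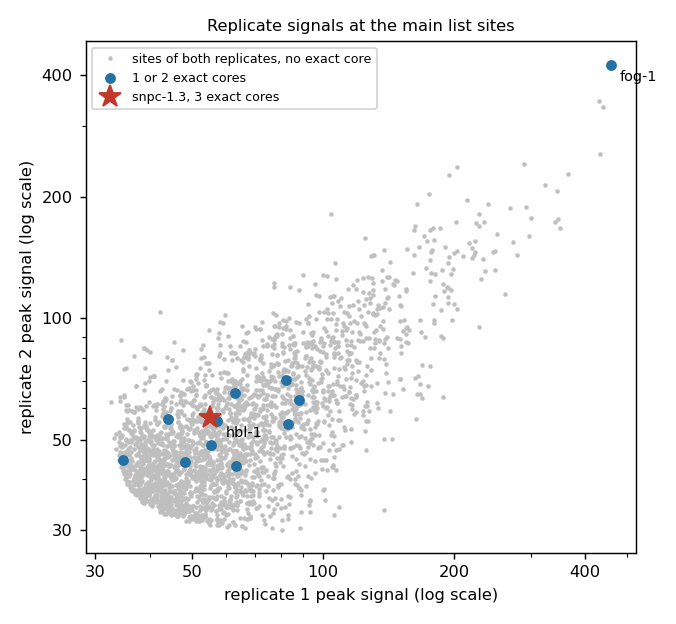
Peak signal in replicate 2 against replicate 1 on log axes for the 2664 main sites with a peak in both. The snpc-1.3 site (star) lies in the dense part of the cloud at 55.15 and 56.67, as do most other sites with an exact core (blue), while fog-1 lies at the top right.

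The cores that lay alone in a peak, wholly within 50 bp of the summit, are printed for 4 other sites, for comparison with the snpc-1.3 copies. The fog-1 and fog-3 cores are not printed and are given by a count. Each is printed in the direction of the core, with 10 bases to each side and the core in capitals. The F10A3.4 copy is on the minus strand of chrV:16151581-16151609, and the others are on the plus strand, at chrX:5821001-5821029 for hbl-1, chrIII:9500561-9500589 for sod-4 and chrV:10717480-10717508 for T28B11.1. Of the 15 exact cores in main sites, 3 had TTTTC 4 bases before the core, 1 at fog-1 and 2 at fog-3. The 3 copies at snpc-1.3 and the 4 printed here were without it.
hbl-1: gtgtcgccggTGGGTGGTCgaatgcgtgt
sod-4: agaaggttagTGGGTGGTCgttgtttttt
T28B11.1: cttctccagcTGGGTGGTCtgtgttcgac
F10A3.4: aactgtggacTGGGTGGTCagtgcaggtc

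Across the genome of 100.3 Mb the exact core occurred 417 times on either strand, and 15 of these copies (3.6%) lay in a main site, 3 of them at snpc-1.3. The 2703 main sites had a median length of 304 bp, and the share of the genome that they cover was not computed. The 3.6% therefore stands without a background and does not by itself show whether cores were rare or frequent in main sites for their length. Copies that stood within 100 bp of each other formed 6 clusters. The snpc-1.3 cluster was the only one of 3 copies and the only one that overlapped a main site. The other 5 clusters had 2 copies each. Those near F21E9.2, Y75B8A.8 and F52D2.12 overlapped ranked peaks with signals of 42.41, 34.04 and 19.24 and scores of 197, 113 and 33, all below the authors' threshold. Those near lev-1 and piki-1 overlapped no ranked peak of both replicates. Grouped cores therefore occurred elsewhere without a TRA-1 call.

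In promoters, taken from 1000 bp upstream to 200 bp downstream of the start, 19888 of the 19973 genes (99.6%) held no exact core and 81 (0.406%) held 1 copy. A pair of copies was found for 2 gene entries, which share the name T26G10.9. The promoters of snpc-1.3 and fog-3 were the 2 with 3 copies. At snpc-1.3 they lay within 48 bp of each other under 1 peak, while at fog-3 they were spread over 2 peaks. Of the 85 genes with a core in the promoter, 9 (10.6%) had a main summit there too. Over all genes 6.41% had a main summit in the promoter, and of the 5 piRNA transcription genes 1 had one.

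The other 4 piRNA transcription genes had no summit of the main list in the window used for every gene, which runs from 2000 bp before the start to the end of the gene. Of all genes, 2235 (11.2%) had a site in that window, against 1 of the 5. The count was also 1 of 5 in the second thresholded list of both replicates, where 12.9% of all genes had a site. It was 0 of 5 in the list of replicate 1 alone, where 7.6% of all genes had a site, and 0 of 5 in that of replicate 2 alone, where the share was 6.22%. Each count of 1 is snpc-1.3 itself and says nothing of the group. The windows of snpc-4, prde-1, tofu-4 and tofu-5 held no copy of the core, exact or with 1 mismatch. No share over all gene windows stands beside this. In the shorter promoter window 99.6% of all genes held no exact core, so its lack at these genes does not set them apart.

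Below the threshold, each of these genes had ranked peaks, so the lists give a signal to compare. SNPC-4 is the DNA-binding subunit of SNAPc. The gene snpc-4 (chrI:8962322-8966129) had its strongest peak at 29.47 in replicate 1, 210 bp upstream of the start, and at 29.08 in replicate 2, 1488 bp downstream of the start. The strongest peaks of snpc-4 were thus alike in signal but not in place. PRDE-1 is a nuclear protein that works with SNPC-4 at the clusters of piRNA genes. The strongest peak of prde-1 (chrV:15538244-15547086) had a signal of 29.97 in replicate 1, 1793 bp downstream of the start, and 27.38 in replicate 2, 6356 bp downstream. Again the replicates placed their strongest peaks apart.

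TOFU-4 and TOFU-5 are the other known members of the complex at piRNA promoters. For tofu-5 (chrI:7069440-7070665) the strongest peak had a signal of 20.05 in replicate 1 and 25.72 in replicate 2. For tofu-4 (chrI:4824904-4826639) it had 15.75 and 16.80. By these values snpc-1.3 was the highest of the 5 genes in both replicates and tofu-4 the lowest. The places between were held by prde-1 and snpc-4, which changed order between replicates, and by tofu-5. In both replicates tofu-5 came after them, but in replicate 2 its 25.72 was near the 27.38 of prde-1. Except at snpc-1.3, the strongest peaks of the replicates lay at different places. The values of such a gene are thus not repeats of the same site, and their difference is not a replicate spread. The windows also differed in length, from 3226 bp at tofu-5 to 10843 bp at prde-1, and the order takes no account of this.

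Set against all genes with a ranked peak in the window, the median signal was 27.2 over 14587 genes in replicate 1 and 25.2 over 16357 genes in replicate 2. The snpc-1.3 values ranked in the upper 10.4% and 6.26% of genes. The values of snpc-4 and prde-1 were close to the medians, and tofu-4 stood at 92.7% and 85.9% of the ranking from the top. In the ranked list of both replicates the strongest peaks had signals of 111.6 at snpc-1.3, 48.75 at prde-1, 41.3 at tofu-5, 38.53 at snpc-4 and 28.3 at tofu-4. The scores of the last 4 lay between 78 and 240, far under 830.

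**Figure D4:**
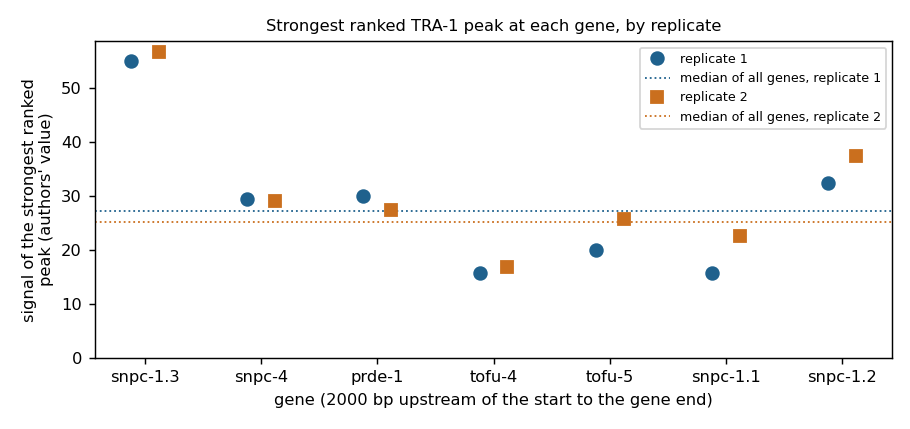
Signal of the strongest ranked peak in the window of each gene, for the 5 piRNA transcription genes and the paralogs snpc-1.1 and snpc-1.2, in replicate 1 (circles) and replicate 2 (squares). Dotted lines are the medians over all genes with a ranked peak, and only snpc-1.3 lies above 50 in both replicates.

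The strongest peaks of the replicates overlapped each other at snpc-1.3 and at none of the other 4 genes, where their summits were between 739 and 4563 bp apart. Such an overlap was common at genes with a main site, found for 87.3% of them, and less frequent at genes without one, at 31.2%. The main list was itself made from peaks that repeat between replicates. The overlap at snpc-1.3 therefore largely follows from its main site and is not a separate trait. Other pairs of ranked peaks of the replicates did overlap, 3 at prde-1 and 1 each at snpc-4 and tofu-4. The strongest prde-1 peak of replicate 1, at 29.97, met a weaker one of 19.30 in replicate 2. Likewise the strongest tofu-4 peak of replicate 1, at 15.75, met one of 15.06 in replicate 2, which was not the strongest there. At these 2 genes the strongest peak of replicate 1 thus had a counterpart at the same place. At tofu-5 no ranked peaks of the replicates overlapped.

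The paralogs of snpc-1.3 had no main site in their windows either. For snpc-1.2 the strongest ranked peak had a signal of 32.39 in replicate 1 and 37.40 in replicate 2, and for snpc-1.1 it had 15.73 and 22.53. Both were below snpc-1.3 in each replicate. In the windows of snpc-1.1 and snpc-1.2 no core was found, exact or with 1 mismatch. Among the 3 paralogs, only snpc-1.3 had the site and the cores. Their lack at the other paralogs is the usual state of a gene. Of all genes 11.2% had a main site in the window, and 99.6% held no exact core in the promoter.

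Farther out, 2 of the 5 genes had a main summit within 10000 bp of the gene, where 37.7% of all genes had one. For snpc-1.3 the further sites lay 3670 and 3870 bp past the gene end, by the start of the convergent neighbour acl-6, with signals of 14.7 and 126.9. The intervals of these sites overlapped, so they need not be separate. The weaker was 28 bp from that start and was not in the second thresholded list. The stronger exceeded the signal of the snpc-1.3 promoter site and was in the thresholded list of replicate 2 with a signal of 79.01. For prde-1 the sites lay 847, 4752 and 6973 bp past the gene end, with signals of 104.05, 149.74 and 100.7. All 3 prde-1 sites were within 100 bp of a tRNA gene. No main site was within 10000 bp of snpc-4, tofu-4 or tofu-5. Of the paralogs, snpc-1.1 had 5 main sites at that distance, from 1780 to 4848 bp past its end and with signals up to 170.6, and snpc-1.2 had none. The snpc-1.1 sites 4624 and 4848 bp past the end overlapped each other. In the second thresholded list snpc-1.1 and snpc-1.2 had 1 site each, so the difference between these paralogs depends on the list. The second thresholded list had 1 site 9018 bp past the end of tofu-5, with a signal of 107.9. The thresholded lists of replicates 1 and 2 each had a peak near it, 9048 and 8863 bp past the end, with signals of 62.66 and 62.96. These replicate peaks did not overlap each other.

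The genes closest to snpc-1.3 in strength show what a site of that signal looked like without cores. By the rule of the nearest main sites by signal, these were dpyd-1 (111.71) and olrn-1 (111.62) above its 111.61, and the sites of let-60 (111.59) and upstream of col-185 (111.56) below it. None of these 4 sites held a core, exact or with 1 mismatch. Signals in replicates 1 and 2 were 60.69 and 56.19 at dpyd-1 and 62.41 and 51.03 at olrn-1. They were 47.98 and 65.13 at let-60, which encodes Ras, and 70.95 and 40.88 at the col-185 site. In each case they lay farther apart than those of snpc-1.3. The dpyd-1 and olrn-1 sites were in both replicates' own thresholded lists. The let-60 site was in that of replicate 2 only and the col-185 site in that of replicate 1 only. The snpc-1.3 site was in neither list.

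Other genes of the pathway were counted in lists of SNAPc subunits, piRNA transcription, piRNA processing and piRNA effectors. In the SNAPc list 1 of 7 genes, snpc-1.3, had a main site, and in the transcription list 1 of 8 (12.5%). In the processing list 2 of 11 had one: tofu-1, with a signal of 153.35 at 268 bp upstream, and slfl-3, with 107.3 at 1290 bp upstream. The tofu-1 site was shared with ruvb-1 and C27H6.9, and the slfl-3 site with C35E7.9. Against the 11.2% of all genes, these shares rest on 1 or 2 genes each.

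Among the effectors, which act with piRNAs or after them, 6 of 24 genes (25%) had a main site, against 11.2% of all genes: prg-1, mut-15, znfx-1, ekl-1, ego-1 and nrde-2. The strongest was at nrde-2, a gene of nuclear RNA interference, with a signal of 268.5, and it was shared with atad-3. The sites of prg-1 (with D2030.7), mut-15 (fib-1 and rps-16), znfx-1 (ZK1067.4) and ekl-1 (F22D6.9) were shared too. Only the ego-1 site lay in the window of no other gene, so most of these sites cannot be assigned to the effector gene alone. The site of prg-1, which encodes the piRNA Argonaute, lay inside the gene, 1132 bp past its start, with a signal of 84.61. It had 43.29 in replicate 1 and 46.39 in replicate 2 and passed the threshold in neither alone. In the second thresholded list prg-1 had no site, while simr-1 did, so the effector count there was also 6, and the SNAPc count was 2, with snpc-3.4. Over the 4 lists, 8 of the 43 genes besides the 5 had a main site, with the same 11.2% of all genes as background, and no core stood at any of these 8 sites, exact or with 1 mismatch. Of the 48 genes, snpc-1.3 was the 1 with an exact core in its promoter.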

How the data were processed

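TRA-1 peak lists on the ce11 build were used, whose sequence is that of WBcel235. Per the file descriptions, the authors made 4 lists from both replicates and 2 lists from each replicate, using alignments of the immunoprecipitated libraries and of a control, followed by an IDR analysis. The control was not used here. Neither aligner nor peak caller is named in the sources used here. The signal and the score of each peak are the authors' deposited values, and signal ranks peaks within a list only. The deposited −log10 values of IDR gave the IDR of a site. Depth is unknown, since no list gives read counts. The lists of both replicates also have 16 columns of values per replicate without replicate numbers, which were not used.

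The main list was the thresholded list with 2703 sites (ranked: 78883), and the second had 3168. Replicate 1 alone gave 1682 and replicate 2 alone gave 1355. A gene had a site when its window held a summit. The window began 2000 bp before the start, taken as the 5′ end in Ensembl release 115, and closed at the gene end. Many genes of this species are trans-spliced, so the annotated start may not be where transcription begins. A replicate's value at a site was the signal of its strongest overlapping ranked peak. Cores were searched on both strands in RefSeq's WBcel235 sequence. Before use, the counting of cores was tested on simulated sequences with planted cores. The search for peaks in gene windows was tested on random genes and peaks. The other counts were not tested in this way. Named genes were the 5 members, the paralogs, every gene of a pathway list with a main site, genes with an exact core within 50 bp of the summit or as many copies as snpc-1.3, the 2 main sites on either side of snpc-1.3 by signal, and neighbours that share a peak. The genes at the other exact cores and core clusters, T26G10.9, simr-1 and snpc-3.4 were named after their values were seen. The members and lists were chosen with earlier results of these data known, and the check of whether replicate peaks overlap was added after the values were seen. Alternatives were the other lists, each replicate alone, a stricter IDR, other windows and other core windows. Python 3.11.15, numpy 2.4.6, pandas 2.3.3 and matplotlib 3.10.9 were used.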

Additional observations from a re-analysis of the deposited data

How the results depend on the processing

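The number of the 5 genes with a main site, 1, was the same in the second thresholded list, at an IDR of at most 0.001, in promoters only and with any base of the peak in the window. It was 0 to 0 when either replicate was left out, as was the number of snpc-1.3 sites, because the peak passes the threshold in neither replicate alone. It was 2 within 10000 bp of the gene, where the share of all genes was 37.7%. The shares of all genes were 12.9% in the second list, 6.12% at the stricter IDR, 6.41% in promoters and 12% with any base of the peak. They were 7.6% with replicate 1 alone and 6.22% with replicate 2 alone. The exact core copies at snpc-1.3 numbered 1 within 50 bp of the summit, also with 1 mismatch allowed or by the centre of the copy, a setting added after seeing the data. They numbered 3 in the peak and 3 within 500 bp. With 1 gene per site, the one with the nearest start, genes with an exact core numbered 7 within 50 bp and 11 in the peak, sup-26 included. Counting every gene whose window holds such a summit, and so without sup-26, gave 12. The wider windows reach cores that the 50 bp window leaves out. The signal rank stood at 44.2% of the main list from the top and 37.9% of the second list, and a rank in a replicate's own thresholded list could not be had. The summit was 78 bp upstream of the start, and 65 and 108 bp in replicates 1 and 2. Unknown depth, 2 replicates and 1 group limit every value, and no sample without the tag was compared.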

Other observations

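The piRNA genes, whose transcription SNPC-4 and its partners drive, can be set beside the TRA-1 sites. Of 15363 annotated piRNA genes 14714 lie on chromosome IV. Of the 2703 main sites 11 (0.407%) had a summit within 100 bp of a piRNA gene, while 2.21% of the bases of the genome lie that close to one. On chromosome IV it was 6 of 356 sites (1.69%), where 11.9% of the bases lie that close. On the other chromosomes, with 0 to 2 such sites each, the share of sites was above the share of bases on I (0.257% against 0.138%), II (0.439% against 0.155%) and V (0.227% against 0.212%), and below it on III (0% against 0.122%) and X (0.15% against 0.198%). No test was made of these shares.

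The word TGATAAG, which GATA factors bind, occurred on either strand in 536 main sites (19.8%) and in 23.7% of promoters. The promoters are a longer window than the peaks, so these shares cannot be set against each other. At snpc-1.3 it stood once in the peak, 39 bp inside the gene and 113 bp from the summit, on the far side of the summit from the cores.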
